A study of Mus musculus with 22 samples.

Results

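The hedgehog and Wnt signalling genes described here are 47 genes chosen by name from both pathways, 11 of the hedgehog and 36 of the Wnt pathway, among 21225 features on the arrays. A member was taken where its Entrez gene number was a feature of the deposited table, and all 47 were found. The data come from the cerebral cortex and the hippocampus of 6 female Ts1Cje mice and their 5 wild-type (WT) littermates, aged 8 to 10 weeks, after Ts1Cje males had been bred to C57Bl/6J females over several generations. The Ts1Cje mouse models Down syndrome: it has an extra copy of the distal part of chromosome 16, carried on chromosome 12 and not functionally trisomic for Sod1. Each animal gave 1 Affymetrix Mouse Gene 1.0 ST array per region. Each genotype comparison rests on 6 Ts1Cje and 5 WT animals. The 22 arrays come from 11 animals, so they are not all independent. A value is a log2 signal per gene, so a difference of 1 is a doubling, and a signal cannot be compared between genes. The design asks whether the genotypes differed within each region, whether that difference varied with region, and how the regions differed.

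Both pathways carry signals between cells through secreted ligands. In the hedgehog pathway the ligand Shh binds the receptor Ptch1, helped by the co-receptors Boc, Cdon and Gas1. Binding releases the membrane protein Smo, and the transcription factors Gli1, Gli2 and Gli3 then switch target genes, Gli1 and Ptch1 among them. Hhip holds Shh at the cell surface, and Sufu holds Gli proteins back. In the Wnt pathway ligands bind Frizzled (Fzd) receptors with the co-receptors Lrp5 and Lrp6, and Dishevelled (Dvl) proteins pass the signal on. The signal stops a complex of Axin, Apc and Gsk3b from marking beta-catenin (Ctnnb1) for destruction, and beta-catenin then acts with the factors Tcf7l1, Tcf7l2 and Lef1. Axin2, Nkd1 and Rnf43 are induced by the pathway and restrain it, and Sfrp and Dkk proteins block it outside the cell. In the adult hippocampus both pathways act on the stem cells of the dentate gyrus, and in the cortex and hippocampus Shh made by neurons acts on astrocytes.

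None of the 47 genes lies in the triplicated segment. Boc, Dvl3 and Gsk3b, 3 of the members, are on chromosome 16 but on the near side of Sod1, in the part present in the usual number of copies, and none is on chromosome 12. Boc differed by -0.03 (SE 0.0425) in hippocampus and by 0.03 (SE 0.0719) in cortex, Ts1Cje minus WT. Dvl3 differed by 0.01 (SE 0.0504) in hippocampus and by -0.02 (SE 0.0514) in cortex. Gsk3b differed by -0.03 (SE 0.061) in hippocampus and by 0.00 (SE 0.0923) in cortex.

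The promoters of 34 of the 47 members were found in the RefSeq table for GRCm38.p6, as 42 windows of the 250 bases before a transcription start. The sequences of 4 members named in the results below are shown as examples, not as a random draw. Gas1 had the lowest p between genotypes. Fzd4 had the largest excess in hippocampus over cortex after centring arrays on their medians (-0.01 as deposited). Fzd7 was among the 8 members with the lowest p between genotypes in cortex (limma's unadjusted p = 0.0763) and was called between regions. Dkk1 is an antagonist that is itself a known Wnt target. Capitals mark a TCF/LEF motif, CTTTGAT or CTTTGTT on either strand. Each sequence runs 5′ to 3′ on the strand of its gene.
Gas1 (chr13:60177536-60177785, minus strand): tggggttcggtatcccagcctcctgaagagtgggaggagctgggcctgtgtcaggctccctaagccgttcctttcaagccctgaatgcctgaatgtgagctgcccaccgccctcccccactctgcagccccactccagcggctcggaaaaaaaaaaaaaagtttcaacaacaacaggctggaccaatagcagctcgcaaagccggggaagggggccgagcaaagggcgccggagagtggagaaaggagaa
Fzd4 (chr7:89404116-89404365, plus strand): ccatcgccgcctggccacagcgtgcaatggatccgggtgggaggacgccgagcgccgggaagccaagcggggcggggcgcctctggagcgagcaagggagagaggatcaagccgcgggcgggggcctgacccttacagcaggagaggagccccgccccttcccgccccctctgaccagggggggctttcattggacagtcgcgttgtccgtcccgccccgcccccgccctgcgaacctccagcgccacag
Fzd7 (chr1:59481897-59482146, plus strand): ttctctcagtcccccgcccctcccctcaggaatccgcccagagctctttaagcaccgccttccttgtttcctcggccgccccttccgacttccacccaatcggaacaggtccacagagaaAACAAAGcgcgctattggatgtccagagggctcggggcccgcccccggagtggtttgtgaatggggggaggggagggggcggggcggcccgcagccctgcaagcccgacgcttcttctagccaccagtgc
Dkk1 (chr19:30549497-30549746, minus strand): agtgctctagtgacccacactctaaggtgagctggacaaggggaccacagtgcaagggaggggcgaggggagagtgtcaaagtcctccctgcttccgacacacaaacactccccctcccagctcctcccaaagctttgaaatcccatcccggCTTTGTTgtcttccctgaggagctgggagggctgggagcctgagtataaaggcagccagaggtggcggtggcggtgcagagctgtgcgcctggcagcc
The motif starts at position -130 from the transcription start in the Fzd7 window and at position -98 in the Dkk1 window. It was also found at position -71 in a window of Wnt5b and at position -14 in a window of Tcf7l2. Other windows of these genes held none. In all, 4 of the 42 member windows held it (9.52%), against 2648 of the 32851 promoter windows of all genes (8.06%). The GLI motif GACCACCCA, searched on both strands, was in 0 of the 42 member windows and in 74 of all windows (0.225%). The motifs do not overlap. A match describes letters and says nothing of binding.

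Across the series, Ts1Cje animal 64 and WT animal 60 stood apart from the rest, with the arrays of both regions. Their correlation with the other arrays of their region had a median of 0.968 to 0.991, against 0.995 to 0.997 for the 9 other arrays of each region. Results are therefore also given without these 2 animals. Of 18 genes of the triplicated segment, 17 were above 0 in each region, Ts1Cje minus WT, with a median difference of 0.41 in hippocampus and 0.45 in cortex, as the genotype labels have it. Of these 18 genes 8 were called in hippocampus and 0 in cortex, where the lowest adjusted p was 0.0921, and 13 in hippocampus and 10 in cortex without animals 60 and 64. The dissections went with their labels too: after centring arrays on their medians, 11 of 11 markers of hippocampal neurons were higher in hippocampus. Of 10 markers of cortical projection neurons 6 were called lower there (limma's adjusted p under 0.05) while 3 were called higher. Over all features 21.2% were called lower and 20.2% higher. All 8 markers of striatal neurons were lower in hippocampus than in cortex, and all 14 markers of the choroid plexus were higher.

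In the hippocampus most hedgehog and Wnt genes had differences a little below 0 between Ts1Cje and WT mice, and no single gene passed the test. Limma's adjusted p was under 0.05 for 0 of 47 members, where 0.114% of all 20239 named features were called. At an unadjusted p under 0.05 there were 4 members, Gas1, Sfrp1, Wnt2 and Wnt7b, all lower in Ts1Cje, where 3.71% of all features passed that limit and 1.69% passed it in the lower direction. The difference was below 0 for 35 of 47 members (74.5%), 7 of 11 hedgehog and 28 of 36 Wnt genes, against 10877 of 20239 features (53.7%). Its median was -0.033 over the hedgehog members, -0.036 over the Wnt members and -0.006 over all features. With arrays centred on their medians, 31 of 47 members were below 0 and the median of all features was 0.010. The member differences ran from -0.26 to 0.13, and their 95% intervals reached -0.43 at one end and 0.40 at the other.

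Among the hedgehog genes the widest hippocampal difference was that of Gas1, a membrane-anchored protein that binds Shh and presents it to Ptch1. Its signal was 7.25, 7.31 and 7.53 (lowest, median and highest) in Ts1Cje hippocampus, against 7.72, 7.52, 7.66, 7.51 and 7.59 in WT hippocampus. In 5 of 6 Ts1Cje animals Gas1 was below every WT animal, and only animal 64, at 7.53, fell among them. The means were 7.34 ± 0.103 in Ts1Cje (SD, n = 6) and 7.6 ± 0.0921 in WT (SD, n = 5), a difference of -0.26 (SE 0.063, 95% interval -0.40 to -0.12). Limma's unadjusted p was 0.00148 and its adjusted p 0.488. Without animals 60 and 64 the difference was -0.27 with an adjusted p of 0.084, and all remaining Ts1Cje animals were below all WT animals, as for 1.45% of all features. When limma weighted the arrays by their quality, the difference was -0.28 and Gas1 was called at an adjusted p of 0.0229, where 0.267% of all features were called. It was the one alternative of 20 that called it, and the adjusted p over them ran from 0.0229 to 1.0.

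The core members of the pathway had smaller differences. Ptch1, receptor and target gene, read 8.53, 8.68 and 8.75 in Ts1Cje hippocampus, against 8.77, 8.74, 8.76, 8.80 and 8.80 in WT hippocampus. In 4 of 6 Ts1Cje animals it was below all WT animals, and the difference of -0.10 (SE 0.0493) did not pass the test (adjusted p = 1.0). Gli1, the target gene most often used to read the pathway, differed by -0.03 (SE 0.0876, 95% interval -0.22 to 0.16). Gli2 differed by -0.08 (SE 0.0967) and Gli3 by -0.07 (SE 0.0497), so 3 of 3 Gli factors were below 0 without a call. Over all features 53.7% were below 0. Shh lay at 0.09 (SE 0.0933), and the inhibitors Hhip and Sufu were both above 0, Hhip at 0.13 (SE 0.113).

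Of the 9 Wnt ligands, 8 were below 0 in Ts1Cje hippocampus, with a median difference of -0.097 and none called. Over all features 53.7% were below 0, and Wnt5a was counted at -0.0077 (SE 0.0689). Wnt7b, a ligand of neurons that acts on brain vessels and dendrites, read 7.33, 7.41 and 7.63 in Ts1Cje, against 7.53, 7.62, 7.72, 7.50 and 7.57 in WT. The groups overlapped through 2 of the 6 Ts1Cje animals, and the difference was -0.15 (SE 0.0634, adjusted p = 1.0). Wnt2 read 6.55, 6.66 and 6.72 in Ts1Cje, against 6.89, 6.63, 6.9, 6.69 and 6.89 in WT, a difference of -0.15 (SE 0.062, adjusted p = 1.0). The WT values of Wnt2 fell at both ends, 3 high and 2 within the Ts1Cje range. Wnt4 read 6.58, 6.72 and 7.09 in Ts1Cje, against 6.93, 6.86, 6.94, 6.94 and 6.96 in WT. Its 4 lowest Ts1Cje animals were below all WT animals and animal 64 above them, and the difference of -0.16 (SE 0.0829) became -0.22 (SE 0.057, adjusted p = 0.407) without animals 60 and 64.

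Outside the cell, the antagonist Sfrp1, which binds Wnt proteins, had the second lowest p of the members in hippocampus. It read 6.83, 6.98 and 7.27 in Ts1Cje, against 7.37, 7.33, 7.20, 7.20 and 7.29 in WT. In Ts1Cje, 4 of 6 animals were below all WT animals, and the means were 7.02 ± 0.18 in Ts1Cje and 7.28 ± 0.0756 in WT. The difference was -0.25 (SE 0.0835, adjusted p = 1.0), and -0.21 without animals 60 and 64. The related antagonist Frzb was at 0.11 (SE 0.13) with all animals and at -0.0044 without animals 60 and 64.

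At the membrane, 6 of 8 Frizzled receptors and both Lrp co-receptors were below 0 in hippocampus, with none called. Over all features 53.7% were below 0. Fzd1 was counted at -0.0002 (SE 0.065). Without animals 60 and 64, Fzd1 and Fzd3 were above 0, at 0.0105 and 0.0122. Fzd2 read 6.88, 7.23 and 7.61 in Ts1Cje, against 7.55, 7.28, 7.40, 7.31 and 7.45 in WT, a difference of -0.16 (SE 0.108, adjusted p = 1.0) with overlapping groups. It was -0.24 without animal 64 and -0.09 without animal 97. Lrp5 read 7.12, 7.31 and 7.37 in Ts1Cje, against 7.61, 7.32, 7.38, 7.31 and 7.32 in WT, and its difference of -0.11 (SE 0.0667) rests in part on the high value of animal 60, since it was -0.07 without animals 60 and 64. Inside the cell the 4 transducers had a median difference of -0.004 and the 4 members of the destruction complex one of -0.033. Axin2, a general Wnt target gene, differed by -0.04 (SE 0.0617, 95% interval -0.17 to 0.10), and Lef1 by -0.05 (SE 0.0503).

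Markers of most other cell types listed lay below 0 in the hippocampus too, where 53.7% of all features did. Of 12 markers of the meninges 10 were below 0 with a median of -0.14, and their mean log2 signal was 7.55 to 7.81 in Ts1Cje and 7.6 to 8.01 in WT. Of 14 choroid plexus markers 12 were below 0, with a median of -0.22 and mean log2 signals of 7.93 to 8.69 in Ts1Cje and 8.12 to 8.66 in WT. Of 12 astrocyte markers 11 were below 0, with a median of -0.070, and their mean log2 signals were 9.91 to 10.09 in Ts1Cje and 10.06 to 10.12 in WT. Below 0 were also 9 of 11 hippocampal neuron markers (median -0.096), 9 of 10 ependymal (-0.087), 8 of 9 thalamic (-0.074), 7 of 10 cortical projection neuron (-0.064) and 9 of 12 endothelial markers (-0.027), while 5 of 8 striatal markers were above 0 (0.037). None of these markers was called, no array value marks a gene as absent, and their part in the values of the hedgehog and Wnt genes was not tested. In whole tissue, fewer cells of a type and less RNA per cell cannot be told apart.

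**Figure D1:**
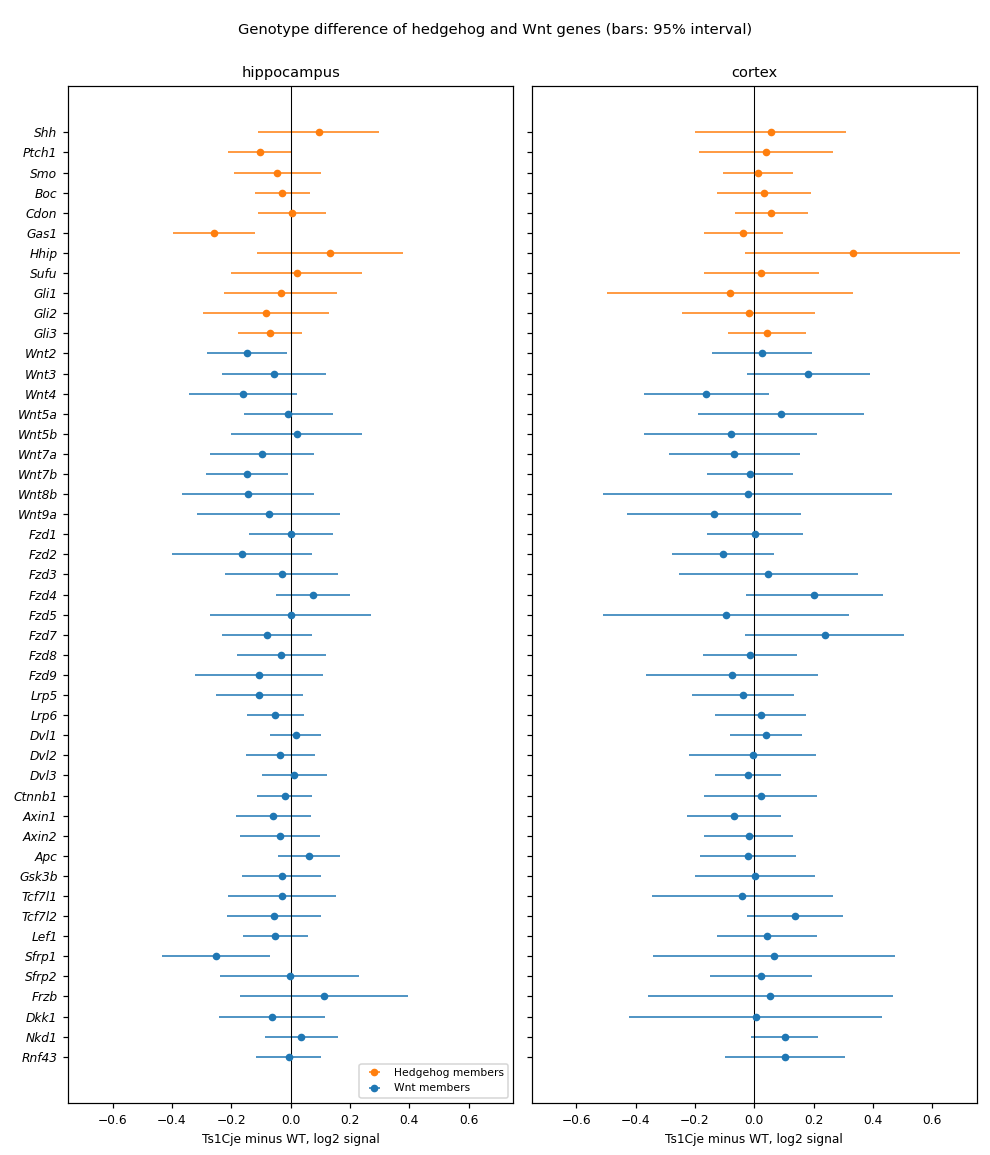
Difference of log2 signal, Ts1Cje minus WT, for the 47 genes in hippocampus and in cortex (points: limma estimate; bars: 95% interval; 6 Ts1Cje and 5 WT animals). No gene passed an adjusted p of 0.05, 35 genes lie below 0 in hippocampus and 20 in cortex, and Gas1 and Sfrp1 in hippocampus lie at -0.26 and -0.25.

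In the cortex the signals of hedgehog and Wnt genes were spread on both sides of 0 between Ts1Cje and WT mice, and no gene passed the test. Limma's adjusted p was under 0.05 for 0 of 47 members, where 0.00494% of all features were called, and 0 members had an unadjusted p under 0.05, where 1.3% of all features did. The difference was above 0 for 27 members and below 0 for 20. The median was 0.032 over the hedgehog members, 0.002 over the Wnt members and -0.003 over all features, and after quantile normalization of all arrays both pathway medians were below 0, at -0.006 and -0.017. Differences ran from -0.16 to 0.33, and their 95% intervals reached -0.51 at one end and 0.70 at the other. Intervals were wider than in hippocampus: the median SE of the members was 0.0689 in hippocampus and 0.0923 in cortex.

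Hhip, which binds hedgehog ligands at the cell surface, had the lowest p in cortex and the widest difference. Its signal was 7.24, 7.72 and 7.90 in Ts1Cje, against 6.69, 7.38, 7.42, 7.6 and 7.47 in WT. In 4 of 6 Ts1Cje animals Hhip was above every WT animal, while the lowest Ts1Cje and WT values were those of animals 64 and 60. The difference was 0.33 (SE 0.165, 95% interval -0.03 to 0.70, adjusted p = 1.0), 0.26 without animals 60 and 64, and 0.18 to 0.41 when each animal was left out in turn. The targets of the pathway showed smaller differences, Ptch1 of 0.04 (SE 0.103, 95% interval -0.19 to 0.26) and Gli1 of -0.08 (SE 0.189). Gli1 read 7.41 on the array of Ts1Cje animal 64 and 7.67 on that of WT animal 60, against 6.70 to 6.84 in the other Ts1Cje animals and 6.69 to 6.9 in the other WT animals. Without those 2 animals its difference was -0.01. Shh differed by 0.05 (SE 0.116).

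Nkd1, a Dishevelled-binding inhibitor that Wnt signalling induces, was the member whose cortex groups did not overlap. It read 8.52, 8.55 and 8.67 in Ts1Cje, against 8.51, 8.43, 8.45, 8.45 and 8.49 in WT. All 6 Ts1Cje animals were above all 5 WT animals, a pattern that 0.232% of all features shared in this direction and 1 of 47 members (2.13%). The difference was 0.10 (SE 0.052, adjusted p = 1.0), and 0.09 without animals 60 and 64. In hippocampus Nkd1 differed by 0.04 (SE 0.0558) with overlapping groups. Axin2, another induced inhibitor, differed in cortex by -0.02 (SE 0.0684, 95% interval -0.17 to 0.13).

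A further 4 Wnt members among the 8 members with the lowest p in cortex lay above 0, none of them called. Limma's unadjusted p was 0.0763 for Fzd7, 0.0786 for Wnt3, 0.0806 for Fzd4 and 0.0901 for Tcf7l2. Fzd7, a receptor of stem and progenitor cells in many tissues, read 7.27, 7.37 and 7.65 in Ts1Cje, against 6.73, 7.15, 7.35, 7.35 and 7.35 in WT. Its difference was 0.24 (SE 0.122), and 0.15 without animals 60 and 64, since animal 60 held the lowest value. Fzd4, which also serves as the receptor of norrin on vessels, read 7.40, 7.59 and 7.76 in Ts1Cje, against 7.18, 7.25, 7.27, 7.48 and 7.73 in WT, a difference of 0.20 (SE 0.106). Wnt3, a ligand that favours the neuronal fate of hippocampal progenitors, read 6.33, 6.47 and 6.82 in Ts1Cje, against 6.43, 6.38, 6.27, 6.45 and 6.22 in WT, a difference of 0.18 (SE 0.0943). Tcf7l2, a transcription factor abundant in thalamic neurons, read 8.00, 8.21 and 8.27 in Ts1Cje, against 7.84, 8.05, 8.14, 8.05 and 8.03 in WT, a difference of 0.14 (SE 0.0741), and 0.08 without animals 60 and 64. Ts1Cje and WT animals overlapped for each of these 4 genes. Below 0 were Wnt4, at -0.16 (SE 0.0962), and Fzd2, at -0.10 (SE 0.0782), which were below 0 in hippocampus as well. With single animals left out Wnt4 ran from -0.22 to -0.08, nearest 0 without animal 60, and Fzd2 from -0.14 to -0.06, nearest 0 without animal 87. Wnt4 read 7.40, 7.55 and 7.70 in Ts1Cje cortex, against 8.00, 7.74, 7.64, 7.47 and 7.6 in WT cortex. Fzd2 read 7.76, 8.00 and 8.16 in Ts1Cje cortex, against 8.23, 8.04, 8.06, 8.04 and 8.10 in WT cortex.

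Markers of some other cell types lay above 0 in the cortex, and those of others did not. Over all features 48.5% were above 0. Of 12 endothelial markers 9 were above 0 with a median of 0.071, and their mean log2 signal was 9.06 to 9.48 in Ts1Cje and 9.09 to 9.42 in WT. Of 12 meningeal markers 10 were above 0, with a median of 0.085 and mean log2 signals of 7.72 to 8.20 in Ts1Cje and 7.57 to 8.02 in WT. Of 9 thalamic markers 7 were above 0 with a median of 0.10, and mean log2 signals were 7.74 to 8.04 in Ts1Cje and 7.62 to 7.91 in WT. All 8 striatal markers were above 0, with a median of 0.12 and mean log2 signals of 10.36 to 10.59 in Ts1Cje and 9.95 to 10.61 in WT. Also above 0 were 8 of 10 cortical projection neuron markers (median 0.036) and 6 of 10 ependymal markers (0.0064). Below 0 were 8 of 12 astrocyte markers (-0.018) and 7 of 11 hippocampal neuron markers (-0.011). The 14 choroid plexus markers were split evenly, 7 above and 7 below 0 (median -0.022). None was called, and their part in the values of Fzd4, Fzd7, Tcf7l2 and Hhip was not tested.

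**Figure D2:**
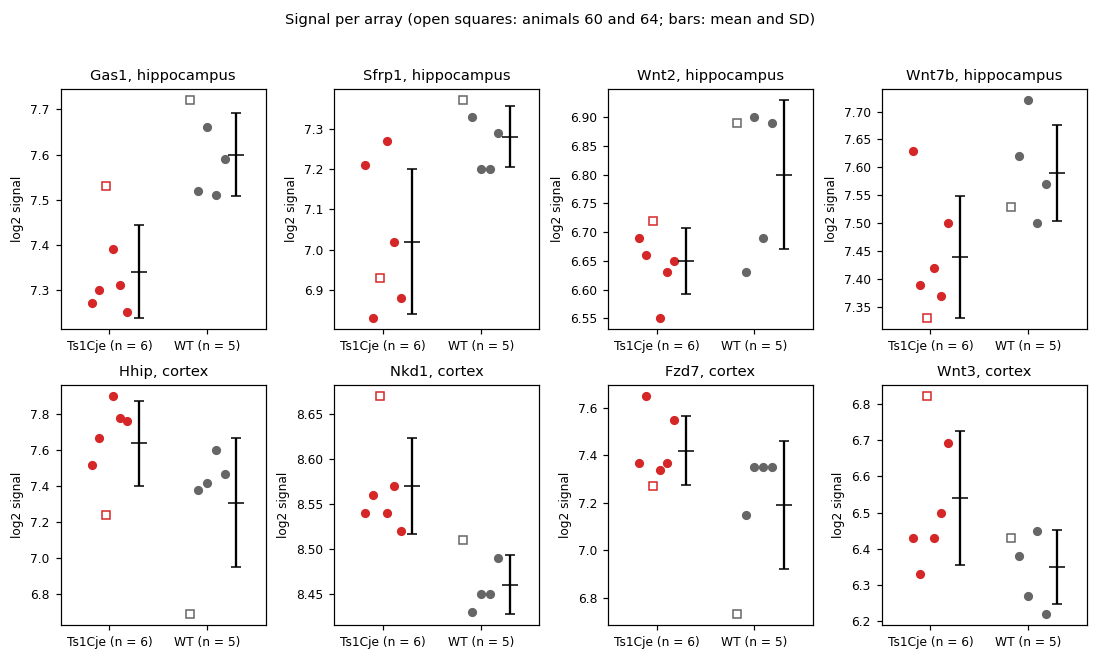
Log2 signal of each array for 4 genes in hippocampus (upper panels) and 4 in cortex (lower panels), Ts1Cje on the left and WT on the right of each panel (circles: animals; open squares: animals 60 and 64; black bars: mean and SD; vertical axes differ and do not start at 0). Gas1 is lower in 5 of 6 Ts1Cje hippocampi than in any WT hippocampus, and Nkd1 is the gene whose cortex groups do not overlap.

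The genotype difference itself was compared between the regions, as hippocampus minus cortex. No member was called (0 of 47), nor was any of the 20239 features (0%). Gas1 and Fzd7, 2 members, had an unadjusted p under 0.05 in limma, where 1.28% of all features did. For Gas1 the genotype difference was -0.26 in hippocampus and -0.04 in cortex, and the difference between these was -0.22 (SE 0.0838, 95% interval -0.40 to -0.05, adjusted p = 1.0). In cortex Gas1 read 7.88, 7.96 and 8.09 in Ts1Cje, against 8.12, 7.93, 8.05, 7.96 and 7.96 in WT. For Fzd7 the genotype difference was -0.08 in hippocampus and 0.24 in cortex, which differ by -0.32 (SE 0.143, adjusted p = 1.0), and by -0.38 to -0.18 with single animals left out, nearest 0 without animal 60. Next was Wnt3, at -0.06 in hippocampus and 0.18 in cortex, which differ by -0.24 (SE 0.125). With each animal as a random replicate block, which uses the pairing of regions within an animal, 5 members had an unadjusted p under 0.05, Wnt2 and Tcf7l2 besides these 3, where 4.51% of all features did, and still 0 were called. The lowest adjusted p among these, for Gas1, was then 0.882.

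Members varied between animals by different amounts within a group. Pooled over the genotypes, the SD between animals had a median of 0.112 over the members in hippocampus and 0.149 in cortex. It ran from 0.0316 for Dvl1 to 0.237 for Frzb in hippocampus, and from 0.0431 for Dvl3 to 0.406 for Wnt8b in cortex. Without animals 60 and 64 the medians were close to each other, 0.0818 in hippocampus and 0.0837 in cortex. The widest cortical spread was then that of Sfrp1 (0.207), and Nkd1 had the narrowest (0.0216).

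More members were called between the brain regions than between the genotypes. After each array was centred on its median, 23 of 47 members (48.9%) differed between hippocampus and cortex at an adjusted p under 0.05, 14 higher and 9 lower in hippocampus. Over all features 41.4% were called, 20.2% higher and 21.2% lower, so the share of members called was near the background. The called members were 5 of 11 hedgehog genes (45.5%) and 18 of 36 Wnt genes (50%). Directions rest on the centring, or on quantile normalization in its place. Array medians were 6.91 to 6.95 in hippocampus and 7.53 to 7.62 in cortex. The regions were also extracted with different kits, so region and kit cannot be told apart in any difference below. Centring removes only a shift shared by the genes of an array. On the values as deposited the median difference of all features was -0.63, all 47 members were below 0, 45 of them called (95.3% of all features were), and none of the 14 genes given as higher in hippocampus was above 0. Each region difference below is relative to the array median, 11 hippocampus against 11 cortex arrays, with the pairing within animals left out of the fit.

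Hedgehog receptors and co-receptors differed between regions in both directions. Boc, a co-receptor that also guides commissural axons and marks projection neurons of the cortex, read 0.95, 1.04 and 1.11 above the array median in hippocampus (lowest, median and highest), against 1.49, 1.59 and 1.80 in cortex. No arrays overlapped, and the difference was -0.60 (SE 0.0407, adjusted p = 8.61e-11). Cdon, the related co-receptor, was higher in hippocampus after centring, at 0.93, 1.13 and 1.18 in hippocampus against 0.54, 0.77 and 0.81 in cortex. The difference was 0.37 (SE 0.0379, adjusted p = 7.42e-08), higher in 11 of 11 animals, and -0.26 as deposited. Smo read 1.09, 1.32 and 1.5 in hippocampus, against 0.95, 1.04 and 1.09 in cortex, without overlap and with a difference of 0.28 (SE 0.0407, adjusted p = 8.74e-06; -0.35 as deposited). Gas1 was higher in hippocampus by 0.12 (SE 0.0392, adjusted p = 0.0194; -0.51 as deposited), by 0.22 within WT animals (adjusted p = 0.0275) and by 0.02 within Ts1Cje animals (adjusted p = 0.85). The call of Gas1 was lost without animal 87, without animal 98 and under quantile normalization (adjusted p = 0.0783). Gli3 was lower in hippocampus, at -0.17 (SE 0.0379, adjusted p = 0.00129). Ptch1, at -0.10 (SE 0.0605), and Gli1, at -0.10 (SE 0.103), did not pass, and Ptch1 did so without animals 60 and 64, at -0.16 (adjusted p = 0.00014).

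Frizzled receptors also differed both ways, 3 called higher and 2 lower in hippocampus among 8. Over all features 20.2% were called higher and 21.2% lower. Fzd3, which steers axons through the planar polarity branch of Wnt signalling, had the largest difference of the 47 members. It read 1.52, 1.94 and 2.11 in hippocampus, against 2.11, 2.75 and 2.84 in cortex, a difference of -0.74 (SE 0.0878, adjusted p = 5.4e-07), lower in hippocampus in all 11 animals. The low end of the cortical range came from animals 60 and 64, and the difference was -0.79 without them. Fzd4 read 0.41, 0.54 and 0.73 in hippocampus, against -0.42, -0.03 and 0.20 in cortex. No arrays overlapped, and the difference was 0.62 (SE 0.0614, adjusted p = 4.11e-08), which was -0.01 with an adjusted p of 0.823 as deposited. Fzd8 read 0.25, 0.38 and 0.59 in hippocampus, against -0.26, -0.06 and 0.09 in cortex, also without overlap and with a difference of 0.45 (SE 0.0472, adjusted p = 8.5e-08; -0.18 as deposited). Fzd7 read 0.02, 0.20 and 0.43 in hippocampus, against -0.87, -0.20 and 0.09 in cortex, a difference of 0.45 (SE 0.0737, adjusted p = 3.44e-05; -0.18 as deposited). Fzd1 was lower in hippocampus, at -0.20 (SE 0.044, adjusted p = 0.00104). The co-receptor Lrp5 was higher by 0.30 (SE 0.0473, adjusted p = 2.7e-05; -0.33 as deposited), in 11 of 11 animals.

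Of the 9 Wnt ligands 3 were called higher and 1 lower in hippocampus after centring, where 20.2% of all features were called higher and 21.2% lower. Wnt5a, a ligand of the branches that do not use beta-catenin, read 0.03, 0.21 and 0.35 in hippocampus, against -0.71, -0.32 and 0.03 in cortex. It was higher in hippocampus in 11 of 11 animals, by 0.56 (SE 0.0738, adjusted p = 2.34e-06), and lay at -0.07 with an adjusted p of 0.357 as deposited. Wnt7a was higher by 0.27 (SE 0.0644, adjusted p = 0.00203) in 9 of 11 animals, and lower as deposited, at -0.36. Wnt9a was lower in hippocampus, at -0.35 (SE 0.0851, adjusted p = 0.00196). Wnt7b was higher by 0.12 (SE 0.046, adjusted p = 0.039; -0.51 as deposited), but this call was lost when any one of 8 animals (61, 87, 94, 97, 60, 62, 65 or 95) was left out, and in either genotype alone. Wnt8b, known from the hippocampal margin of the embryonic cortex, read -2.53, -2.30 and -1.90 in hippocampus and -2.66, -2.43 and -1.58 in cortex, a difference of 0.04 (SE 0.123) that did not pass with all animals and was 0.15 (adjusted p = 0.0349) without animals 60 and 64. Wnt8b, Wnt3 and Dkk1 are the 3 members among the dimmest features (the lowest 6747 of 20239 by mean signal), where an array separates levels least.

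The secreted antagonists were all below 0, 4 of 4, with 2 called lower, where 21.2% of all features were called lower. Sfrp2 read -1.11, -0.96 and -0.53 in hippocampus, against -0.68, -0.51 and -0.34 in cortex, a difference of -0.39 (SE 0.0644, adjusted p = 4.17e-05). Dkk1, whose window above holds a TCF/LEF motif, read -1.70, -1.51 and -1.26 in hippocampus, against -1.44, -1.25 and -0.44 in cortex. Its difference was -0.35 (SE 0.105, adjusted p = 0.0106), and -0.25 (adjusted p = 9.62e-06) without animals 60 and 64, whose cortex arrays held the highest values. Sfrp1, at -0.17 (SE 0.107), and Frzb, at -0.10 (SE 0.122), did not pass, and Sfrp1 did so without animals 60 and 64, at -0.30 (adjusted p = 0.0024).

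Within the cell, the scaffold Apc read 3.29, 3.50 and 3.57 in hippocampus, against 3.75, 4.02 and 4.06 in cortex, a difference of -0.49 (SE 0.045, adjusted p = 1.21e-08) with no overlap. Gsk3b, the kinase of the same complex, was lower, at -0.26 (SE 0.0589, adjusted p = 0.0013) in all 11 animals. Axin1, their partner, was higher by 0.18 (SE 0.0444, adjusted p = 0.00269; -0.45 as deposited). Among the outputs, Lef1 was higher by 0.16 (SE 0.0474, adjusted p = 0.00925; -0.47 as deposited) but passed in neither genotype alone, Axin2 differed by -0.05 (SE 0.0411, adjusted p = 0.342) and Rnf43 was higher by 0.23 (SE 0.0516, adjusted p = 0.00116; -0.40 as deposited). The members that differed least were Dvl1 at 0.04, Ctnnb1 at 0.03 (95% interval -0.08 to 0.13), Wnt5b at 0.02 and Nkd1 at -0.01 (95% interval -0.08 to 0.06).

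Counted by overlap, the arrays of the regions were apart for 6 members: Smo, Cdon, Fzd4 and Fzd8, 4 of 47 (8.51%), with all hippocampus arrays above all cortex arrays, and Boc and Apc, 2 of 47 (4.26%), with all below. Over all features 4.83% were apart upwards and 4.88% downwards. Without animals 60 and 64, 35 members were called, 20 higher and 15 lower in hippocampus, where 65.5% of all features were called (32.3% higher, 33.2% lower), and all 23 members called with every animal were among them in the same direction. Within single genotypes, 18 members were called in Ts1Cje alone and 14 in WT alone, where 28.3% and 22% of all features were called. All were among the 23 and in the same direction. The main fit averages the 2 genotypes, so this is no separate test. The calls of Gas1, Wnt7b, Wnt9a, Lef1 and Rnf43 were lost in Ts1Cje alone. Those of Gli3, Wnt7a, Wnt7b, Fzd1, Dvl2, Axin1, Gsk3b, Lef1 and Dkk1 were lost in WT alone. Cell type markers also differed with the region. Those of choroid plexus were higher in hippocampus, 14 of 14, with a median of 1.98. Of 12 meningeal markers 6 were called higher and none lower, and of 12 astrocyte markers 6 were called higher and 1 lower. With all animals, 20.2% of all features were called higher and 21.2% lower. The part of these markers in the members' differences was not tested.

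**Figure D3:**
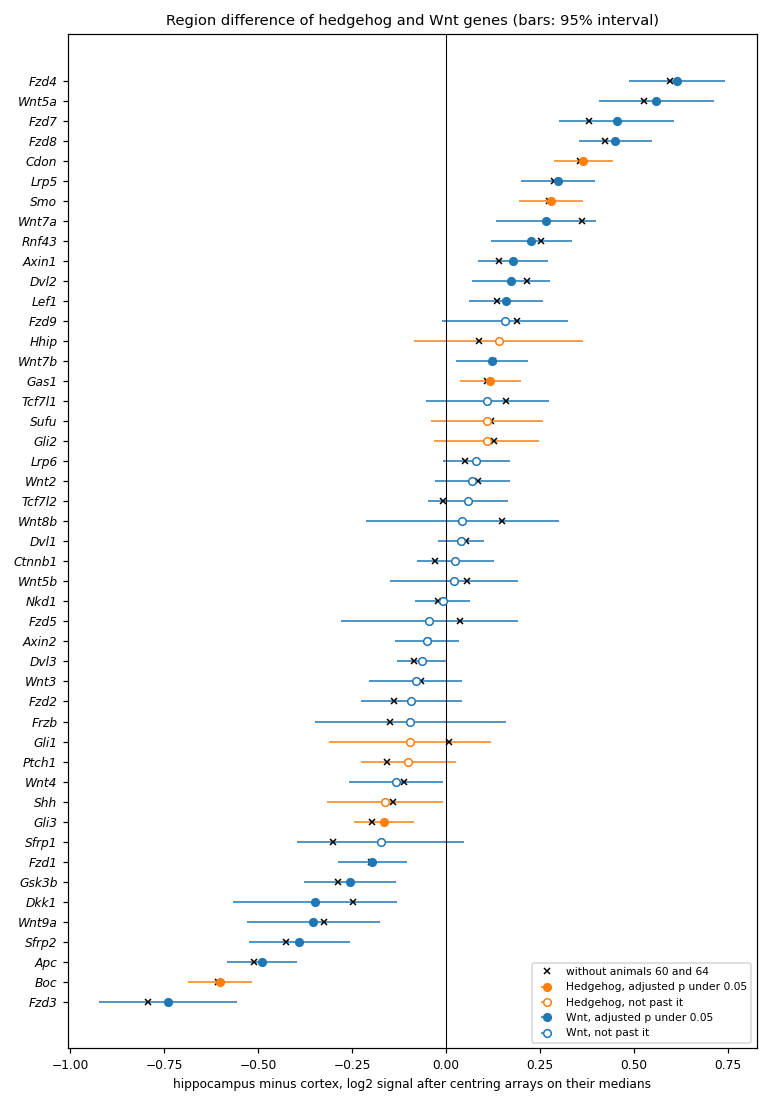
Difference of log2 signal after centring arrays on their medians, hippocampus minus cortex, for the 47 genes (points: limma estimate over 22 arrays; bars: 95% interval; filled: adjusted p under 0.05; crosses: without animals 60 and 64). Differences run from -0.74 for Fzd3 to 0.62 for Fzd4 with 14 genes called higher and 9 lower, and as deposited, without centring, all 47 genes lie below 0.

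**Figure D4:**
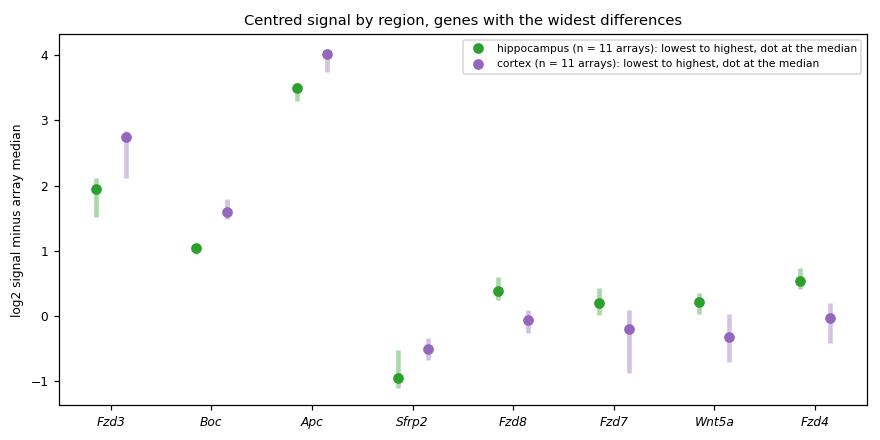
Centred log2 signal of the 4 members with the widest lower and the 4 with the widest higher differences in hippocampus over 11 arrays per region (hippocampus left, cortex right; line: lowest to highest; dot: median; heights are not comparable between genes). Boc, Apc, Fzd4 and Fzd8 do not overlap between regions. The higher direction of Fzd8, Fzd7, Wnt5a and Fzd4 holds after centring or quantile normalization and not as deposited.

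Other genes of both pathways were followed in the same fits. Of 27 other hedgehog genes measured, none was called between genotypes in either region, with 20 below 0 in hippocampus (median -0.030) and 14 in cortex (median -0.010). Of 77 other Wnt genes none was called, with 51 below 0 in hippocampus (median -0.023) and 47 in cortex (median -0.025). Over all features 53.7% were below 0 in hippocampus and 51.5% in cortex. At an unadjusted p under 0.05 there were 2 hedgehog genes in hippocampus and none in cortex, and 3 Wnt genes in hippocampus and 2 in cortex. Of all features 3.71% passed that limit in hippocampus and 1.3% in cortex. Kremen1, a receptor of Dkk proteins, differed by 0.12 (SE 0.0506) in hippocampus, with 5 of 6 Ts1Cje animals above all WT animals, and by 0.27 (SE 0.0751) in cortex, with all 6 above (adjusted p = 1.0 for both). In cortex 0.232% of all features had all Ts1Cje animals above all WT animals. Over the alternatives for Kremen1 in cortex the adjusted p ran from 0.0154, with array weights, to 1.0. Ccnd1, a cell cycle gene that Wnt signalling induces, differed by -0.16 (SE 0.0534) in hippocampus, with 5 of 6 Ts1Cje animals below all WT animals. Apcdd1, an inhibitor of Wnt signalling at the membrane, was the remaining Wnt gene under that limit in hippocampus, at -0.17 (SE 0.0711), with 5 of 6 Ts1Cje animals below all WT animals. Dact2 was the other one in cortex, at -0.17 (SE 0.0737). Of the hedgehog genes, the lowest p in hippocampus were those of Evc2 at 0.15 (SE 0.0668) and Arrb2 at -0.13 (SE 0.0554). In cortex they were those of Scube1 at -0.12 (SE 0.0569) and Efcab7 at -0.14 (SE 0.073). For Scube1 all 6 Ts1Cje animals were below all WT animals in cortex, without a call.

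Between regions, 13 of the 27 other hedgehog genes (48.1%) and 33 of the 77 other Wnt genes (42.9%) were called after centring, where 41.4% of all features were. Gpr161, a ciliary receptor that restrains hedgehog signalling, was higher in hippocampus by 1.79 (SE 0.0454, adjusted p = 3.03e-17) and also as deposited, by 1.16. Scube1 was lower, at -1.29 (SE 0.044), while Gpc3 and Disp2, a relative of the protein that releases hedgehog ligands from cells, were higher by 0.46 and 0.34 after centring and below 0 as deposited. Sostdc1, a secreted antagonist strongly made by choroid plexus, was higher by 2.55 (SE 0.167), and by 1.92 as deposited. Dkkl1 was lower, at -2.26 (SE 0.0785), and the R-spondin Rspo1 and the R-spondin receptor Lgr5, which raise Wnt signalling, were lower, at -1.15 (SE 0.0606) and -1.15 (SE 0.16).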

How the data were processed

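Per the submitters' processing notes the authors made the values with RMA, which corrects background, normalizes arrays and summarizes probes, and the deposited values are log2 signals. The sources used here do not state a version of RMA, nor whether it was run on both regions at once. Of 21225 features 20239 carried 1 gene symbol and were tested, and 986 carried none.

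Limma 3.58.1 in R 4.3.3 (lmFit, eBayes, two-sided, Benjamini-Hochberg over the 20239 features, called under 0.05) compared genotypes in the 11 arrays of each region. The region comparison, after centring each array on its median, and the difference of genotype effects used all 22 arrays. The fit code was run on simulated data with planted differences and noise drawn independently for each array. That run held no effect shared by an animal's arrays and no outlying arrays, so it cannot speak for those features of the data. The main fits of the region comparison and of the difference of genotype effects treated the 22 arrays as independent. The pairing of regions by animal number was used for the counts of animals and for the alternatives with the animal as a replicate block. After group means were removed, an animal's arrays correlated at a median of 0.265 (0.052 to 0.761), and the consensus correlation was 0.437 for regions. The hippocampus array correlated best with the cortex array of its own animal in 7 of 11 animals. WT animal 60 is numbered 61 in its description, and the title was used. No arrays held identical values (highest correlation 0.998).

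The members, lists and alternatives were chosen with earlier results of these data known. Genes were named by rule: the 8 lowest p per region, the 3 lowest for the difference of effects, the 16 largest called and the 4 smallest region differences, and for other pathway genes the 2 lowest p and 4 largest region differences per list. Shh, Gli factors, Axin2, Lef1, Frzb, Wnt8b, Apcdd1 and other genes outside it were named for their role after their values were seen.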

Additional observations from a re-analysis of the deposited data

Results flagged for a closer look

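Of 188 groups of arrays, 1 member in 1 genotype and region each, 43 held an array far from the others, by the gap to its neighbour relative to the range of the group, in 27 members. Chance gives about 1 such group in 20. Of the 43, 40 were arrays of animals 60 or 64. The cortex array of Ts1Cje animal 64 was highest of its group for Shh (7.58, others 7.0 to 7.12), Gli1 (7.41, others 6.70 to 6.84), Wnt5b (7.45, others 6.84 to 6.96), Wnt8b (5.99, others 4.99 to 5.22) and Fzd5 (7.01, others 6.32 to 6.54). So it was for Fzd9 (7.71, others 7.11 to 7.27), Dkk1 (6.97, others 6.24 to 6.33), Nkd1 (8.67, others 8.52 to 8.57) and Rnf43 (7.39, others 6.94 to 7.02). Among Ts1Cje cortex arrays, that of animal 64 was lowest for Ptch1 (9.13, others 9.46 to 9.61), Cdon (8.27, others 8.33 to 8.36), Sufu (8.38, others 8.69 to 8.77), Fzd3 (9.82, others 10.21 to 10.38) and Gsk3b (10.91, others 11.21 to 11.27). The hippocampus array of Ts1Cje animal 64 was highest of its group for Wnt9a (7.34, others 6.69 to 6.87), Fzd9 (7.19, others 6.58 to 6.81) and Sfrp2 (6.41, others 5.81 to 6.02). Among Ts1Cje hippocampus arrays, that of animal 64 was lowest for Fzd3 (8.47, others 8.86 to 9.03) and Gsk3b (10.06, others 10.29 to 10.36). The cortex array of WT animal 60 was highest of its group for Gli1 (7.67, others 6.69 to 6.9), Gli2 (7.44, others 6.97 to 7.04), Fzd9 (7.83, others 7.18 to 7.36), Dvl2 (8.36, others 7.79 to 7.94) and Axin2 (8.30, others 7.96 to 8.04). So it was for Tcf7l1 (7.49, others 6.79 to 6.97) and Dkk1 (7.16, others 6.12 to 6.31). Among WT cortex arrays, that of animal 60 was lowest for Hhip (6.69, others 7.38 to 7.6), Fzd3 (9.71, others 10.25 to 10.38), Lrp6 (8.97, others 9.24 to 9.32), Apc (11.34, others 11.59 to 11.60) and Gsk3b (10.91, others 11.23 to 11.31). The hippocampus array of WT animal 60 was highest of its group for Wnt3 (5.85, others 5.73 to 5.75), Fzd1 (7.48, others 7.21 to 7.26), Lrp5 (7.61, others 7.31 to 7.38), Tcf7l2 (7.81, others 7.46 to 7.50) and Sfrp2 (6.32, others 5.92 to 5.97). So it was for Dkk1 (5.60, others 5.42) and Nkd1 (7.91, others 7.84 to 7.85). Among WT hippocampus arrays, that of animal 60 was lowest for Cdon (7.88, others 8.04 to 8.09) and Gsk3b (10.23, others 10.34 to 10.35). The hippocampus array of Ts1Cje animal 94 was lowest of its group for Rnf43 (6.47, others 6.59 to 6.67). Among WT hippocampus arrays, that of animal 95 was highest for Dvl2 (7.61, others 7.51 to 7.53). The hippocampus array of WT animal 95 was lowest of its group for Rnf43 (6.52, others 6.63 to 6.67). For Gli1, Dkk1, Fzd9, Gsk3b and Fzd3 the cortex arrays of animals 60 and 64 both stood off to the same side, each in its own genotype.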

How the results depend on the processing

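The 2 genotype comparisons and the difference between their effects kept 0 members called under every alternative run, among them a trend and robust prior, quantile normalization, leaving out dim features and a covariate for the 60s against the later animal numbers, except that array weights called 1 in hippocampus. The region comparison called 23 members, 14 higher and 9 lower. Under quantile normalization it called 25, and 22 of the 23 were among them in the same direction. It called 21 to 27 when each animal was left out in turn (12 to 15 higher, 9 to 12 lower), 35 (15 lower) without animals 60 and 64, 34 (15 lower) with array weights, 14 (9 higher, 5 lower) in WT alone, and 45 (0 higher, 45 lower) as deposited. The cause of these changes was not tested. With the animal as a replicate block, random or fixed, it called 27 or 28, and the random block changed no call of the difference between genotype effects. Genotypes share no animal number, so no paired analysis was possible because pairs exist between regions only.

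As deposited, without centring, directions turned, among other members, for Fzd4 (-0.0138), Wnt5a (-0.0704), Fzd7 (-0.18), Fzd8 (-0.18), Cdon (-0.26), Lrp5 (-0.33), Smo (-0.35), Wnt7a (-0.36), Rnf43 (-0.40), Dvl1 (-0.59), Ctnnb1 (-0.60), Wnt5b (-0.61), Gpc3 (-0.17) and Disp2 (-0.29), by the shift that centring removes. Among uncalled values near 0, Ctnnb1 turned with array weights (-0.0387), quantile normalization (-0.0686), without animals 60 and 64 (-0.0305) and without single animals (-0.0172 to 0.0446). Nkd1 turned with quantile normalization (0.00845), in WT alone (0.0126) and without single animals (-0.0167 to 0.00214), and Wnt5b in WT alone (-0.0402). Arrays carry no detection calls here, so dim members limit what can be told.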
